A study of Mus musculus with 8 samples.

Results

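This account follows the genes of the complement system in AML12 cells that express Zfp125. A list of 34 gene symbols was taken, covering the components of the classical, lectin, alternative and terminal pathways, their regulators and 2 receptors. Every transcript cluster whose platform annotation gave a listed symbol, alone or with others, was used. The annotation matched 32 of the 34 genes, on 33 of the 41345 transcript clusters of the array. C3 and Cfd are not analysed here. A transcript cluster is the set of probes that the array reads as 1 transcript. Clusters were taken by symbol and not by their values, though the list was chosen with earlier results of these data known.

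The tested cells were 4 samples of AML12 cells stably expressing Zfp125, a gene for a zinc finger protein, and the comparison cells were 4 samples of AML12 cells carrying the empty vector (EV). G418 selection and control medium were common to both kinds of cell. AML12 is a mouse hepatocyte line that was established from the liver of a mouse carrying a transgene for human transforming growth factor alpha. Whether the replicates came from separate cultures or separately selected lines is not given in the labels. The p-values therefore speak for the spread among these arrays, and that spread may be technical. Zfp125 itself is not analysed here, and the labels were therefore not checked against the expressed gene. The question set by the design is which transcripts differ between cells with Zfp125 and cells with the vector alone.

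Complement is a cascade of plasma proteins that marks microbes and dying cells for uptake and can pierce their membranes. The classical pathway starts with C1q bound to antibody, the lectin pathway with collectins and ficolins bound to sugars, and the alternative pathway runs by itself and amplifies the others. All of them cleave C3 and then C5, which starts the membrane attack complex of the terminal components. Hepatocytes make most of the circulating components and soluble regulators, while C1q and properdin come mainly from macrophages and other leukocytes.

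No complement member passed the test: at an adjusted p under 0.05 (limma, Benjamini-Hochberg over all 41345 clusters), 0 of 33 member clusters rose and 0 fell, where 0.148% of all clusters were called. In all, 61 clusters of the array were called, 10 higher in Zfp125 cells (0.0242%) and 51 lower (0.123%). Among the members, 6 clusters had an unadjusted p under 0.05, which is 18.2% of 33 against 9.43% of all clusters. These were C4bp, Hc, C8b, Fcna and C4b, with lower values in Zfp125 cells, and Clu, with higher values. The groups did not overlap for 2 of 33 member clusters, C4bp and Clu, which is 6.06% against 6.23% of all clusters. Among clusters brighter than the median cluster, 9.04% had groups that did not overlap and 12.1% had an unadjusted p under 0.05, and both C4bp and Clu are of that kind.

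The intervals bound the size of each difference, given the spread among these arrays. All 33 intervals of 95% for the change, taken from limma's moderated test without adjustment, lay within 1 unit on the log2 scale of 0, that is within a 2-fold change. Of these, 9 reached beyond 0.5 units on either side. Most clusters of the array were alike in this. Of all 41345 clusters, 39398 had intervals within 1 unit and 12081 had intervals that reached beyond 0.5 units. The 33 changes, Zfp125 minus EV on the log2 scale, ran from -0.57 to 0.26 with a median of -0.05, against a median of -9.53e-04 over all clusters. They were below 0 for 21 clusters and above 0 for 12, that is 63.6% below 0 against 50.3% of all clusters. Of the 33 clusters, 21 were brighter on average than the median cluster of the table, which stood at 4.34, and 12 were dimmer. A dim cluster can show little of a fall.

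**Figure D1:**
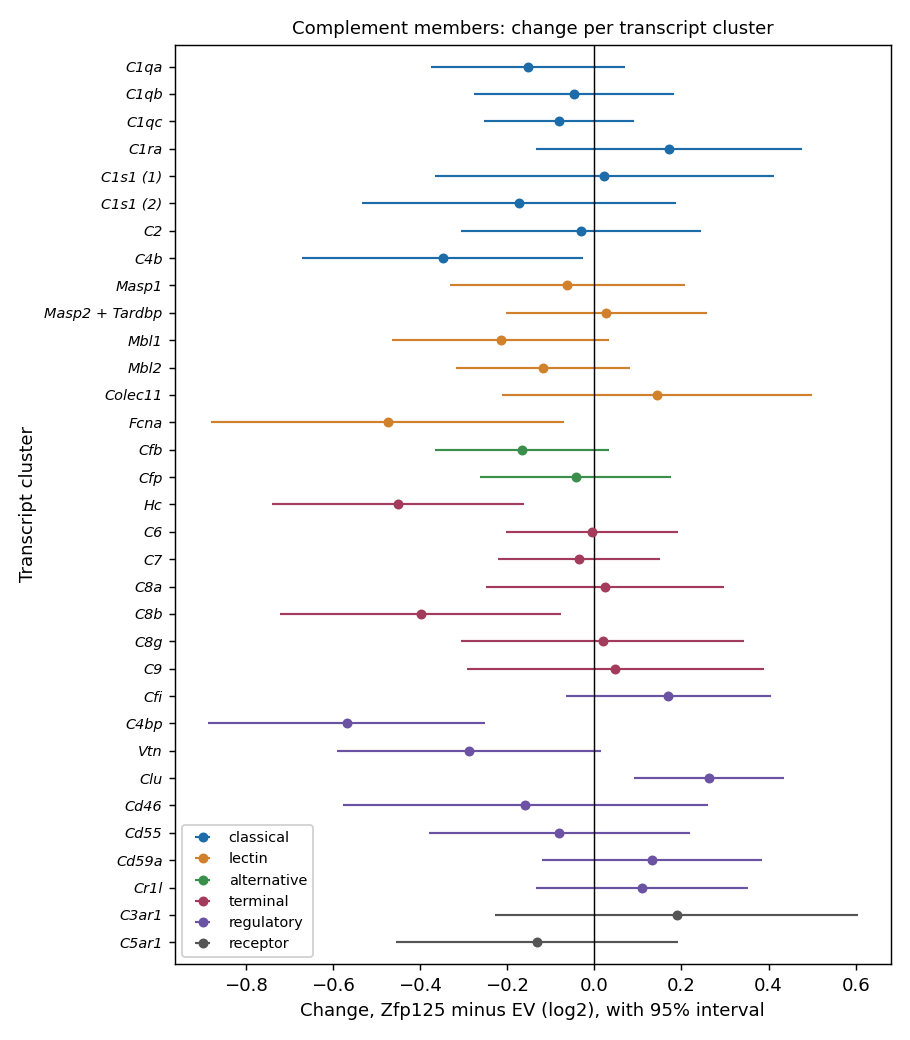
Each row is a member transcript cluster, the point is its change between Zfp125 and EV cells on the log2 scale (n = 4 arrays each) and the line its unadjusted 95% interval, coloured by role in the cascade. The points run from -0.57 for C4bp to 0.26 for Clu, and 6 of 33 intervals leave out 0.

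Taken by role, the soluble regulators held the changes that were largest in both directions. C4bp encodes the alpha chain of the C4b-binding protein, the plasma cofactor that lets factor I cleave C4b. Its cluster (17226655) read 6.60, 6.58, 6.25 and 6.90 on the 4 Zfp125 arrays, against 7.15, 6.94, 7.19 and 7.32 on the 4 EV arrays. Every Zfp125 array lay below every EV array, although the closest pair stood only at 6.90 and 6.94. The means were 6.58 ± 0.263 in Zfp125 cells and 7.15 ± 0.159 in EV cells (SD, n = 4 each). This was a change of -0.57 ± 0.14 (SE), or 1.48-fold lower, which did not pass the test (limma, adjusted p = 0.211). With 1 cluster for each gene, the brightest, and 22180 genes tested, its adjusted p from limma was 0.0585, still above the threshold.

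Clu encodes clusterin, a secreted chaperone that also keeps the terminal complex from inserting into membranes. Its cluster (17301452) was the brightest of the members and read 11.53, 11.56, 11.67 and 11.52 on the Zfp125 arrays. On the EV arrays it read 11.31, 11.33, 11.31 and 11.28, so every Zfp125 array was higher. The means were 11.57 ± 0.0697 in Zfp125 cells and 11.31 ± 0.0212 in EV cells (SD, n = 4 each), a change of 0.26 ± 0.08 (SE) or 1.2-fold higher. It did not pass the test (limma, adjusted p = 0.298). With a trended, robust prior the adjusted p from limma was 0.0582, the lowest of any member in any setting tried.

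Vtn, another soluble regulator, encodes vitronectin, an adhesive plasma protein that also binds the forming terminal complex. It read 9.13, 9.12, 9.09 and 9.34 in Zfp125 cells and 9.36, 9.24, 9.40 and 9.84 in EV cells. The groups overlapped, with EV replicate 4 standing above the rest, and the change was -0.29 ± 0.13 (limma, adjusted p = 0.557). Without EV replicate 4 it was -0.16. Cfi encodes factor I, the protease that cleaves C3b and C4b. Its values were 8.53, 8.58, 8.42 and 8.19 in Zfp125 cells and 8.31, 8.19, 8.18 and 8.36 in EV cells. Here too the groups overlapped, at a change of 0.17 ± 0.10 (limma, adjusted p = 0.672).

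The membrane regulators were close to 0. Cd59a, which blocks the addition of C9, had a change of 0.13 (95% interval -0.12 to 0.38). Cr1l, which encodes the rodent membrane regulator Crry, had a change of 0.11 (interval -0.13 to 0.35). Cd55, the decay accelerating factor, had a change of -0.08 (interval -0.38 to 0.22). Cd46, a membrane cofactor for factor I that in the mouse is found mainly in testis, had a change of -0.16 (interval -0.58 to 0.26). The clusters of Cd46 and Cd55 were dimmer than the median cluster, with means over all arrays of 3.57 and 3.68.

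**Figure D2:**
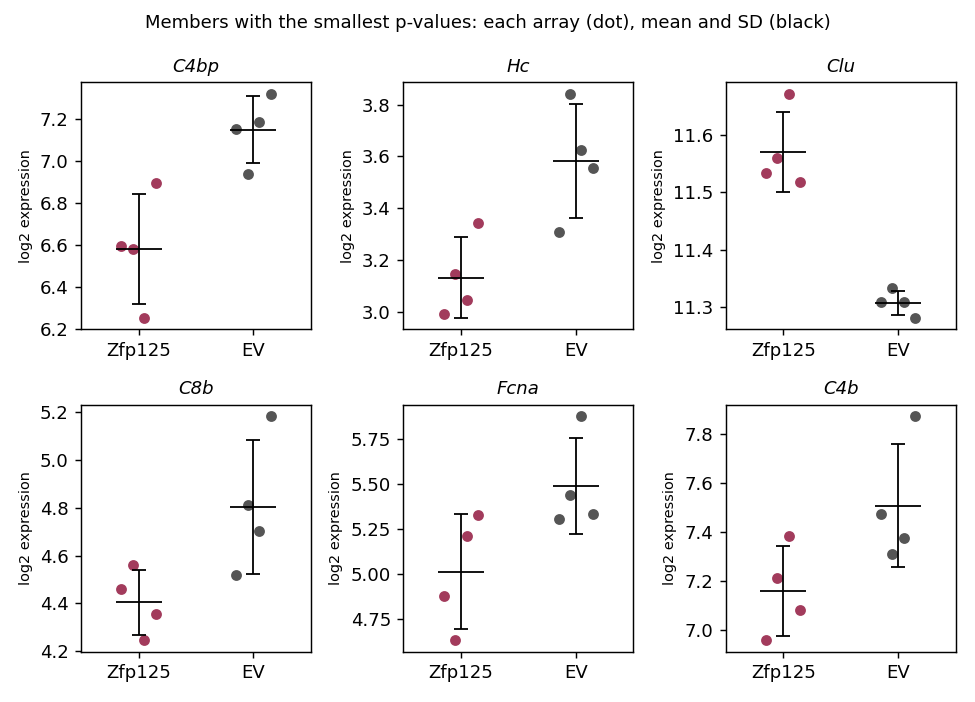
Log2 expression on each array (dots) with mean and SD (black) in Zfp125 (left) and EV cells (right) for the 6 members with the smallest p-values, C4bp, Hc, Clu, C8b, Fcna and C4b. The dots of C4bp and Clu do not overlap between the groups, while those of the other 4 genes do, and no vertical axis starts at 0.

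In the terminal pathway, 2 of 7 members had an unadjusted p under 0.05, both with lower values in Zfp125 cells, and 0 passed the test. Over all clusters 9.43% had such a p, and 4.52% had it with lower values. Hc encodes C5, whose cleavage releases the anaphylatoxin C5a and starts the attack complex. Its cluster (17384374) read 2.99, 3.14, 3.05 and 3.34 on the Zfp125 arrays, against 3.31, 3.84, 3.63 and 3.55 on the EV arrays. The groups overlapped in 1 place, where the highest Zfp125 array passed the lowest EV array. The means were 3.13 ± 0.156 in Zfp125 cells and 3.58 ± 0.22 in EV cells (SD, n = 4 each), a change of -0.45 ± 0.13 (SE) or 1.37-fold lower (limma, adjusted p = 0.287). All 8 values lay below the median cluster.

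C8 is built from 3 chains, of which C8b encodes the beta chain. C8b (17416196) read 4.46, 4.56, 4.25 and 4.36 in Zfp125 cells, against 4.52, 4.81, 4.70 and 5.18 in EV cells. The highest EV value stood apart from the others, and the groups overlapped. The change was -0.40 ± 0.14 (SE), or 1.32-fold lower (limma, adjusted p = 0.408), and without EV replicate 4 it was -0.27. The alpha chain gene C8a, which lies next to C8b in the RefSeq gene table with 0 coding genes between them, had a change of 0.02 (95% interval -0.25 to 0.30). The gamma chain gene C8g had a change of 0.02 (interval -0.31 to 0.34). The difference in change between C8b and the other chains was not tested.

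C6 and C7, the components that anchor the complex to the membrane, had changes of -0.01 (95% interval -0.20 to 0.19) and -0.03 (interval -0.22 to 0.15). C9, which forms the ring of the pore, had a change of 0.05 (interval -0.29 to 0.39). The clusters of C6 and C7 were dim, with means over all arrays of 3.55 and 2.84, so these narrow intervals describe signals below the median cluster.

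Of the 6 lectin pathway members, Fcna had the largest difference. It encodes ficolin A, a sugar-binding plasma lectin that is made in mouse liver and by macrophages. Its cluster (17382737) read 4.88, 4.63, 5.21 and 5.33 in Zfp125 cells, against 5.30, 5.44, 5.88 and 5.33 in EV cells. Both groups were widely spread and overlapped. The change was -0.48 ± 0.18 (SE), or 1.39-fold lower (limma, adjusted p = 0.439), with values between -0.58 and -0.35 on omitting single arrays.

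The mannose-binding lectins Mbl1 and Mbl2 had changes of -0.21 (95% interval -0.46 to 0.03) and -0.12 (interval -0.32 to 0.08). Colec11, a collectin that binds sugars in the same way, had a change of 0.14 (interval -0.21 to 0.50). Masp1, a serine protease that associates with these lectins, had a change of -0.06 (interval -0.33 to 0.21). These values moved when single arrays were left out: without EV replicate 4 the change was -0.12 for Mbl1 and -6.23e-04 for Masp1, and without Zfp125 replicate 3 it was 0.03 for Colec11. The cluster of Masp2, the protease that cleaves C4 and C2, also carries the symbol Tardbp, the gene of an RNA-binding protein, and its signal cannot be assigned to either gene alone. That shared cluster had a change of 0.03 (interval -0.20 to 0.26).

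Among the 7 classical pathway members, C4b had the largest difference. It encodes C4, the substrate of C1s and MASP-2 and a part of the classical C3 convertase. Its cluster (17343918) read 6.96, 7.21, 7.39 and 7.08 in Zfp125 cells, against 7.47, 7.31, 7.38 and 7.87 in EV cells. Only Zfp125 replicate 3 reached into the range of the EV arrays. The change was -0.35 ± 0.14 (SE), or 1.27-fold lower (limma, adjusted p = 0.488). Without EV replicate 4 it was -0.23, a drop of over 1.5 times. The paralog C4a had a change of 0.01 on a dim cluster, and how far the probes tell such near copies apart is not known here.

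C2, the protease partner of C4b in that convertase, read 7.35, 7.34, 7.03 and 7.06 in Zfp125 cells and 7.16, 7.29, 7.01 and 7.44 in EV cells. The values were interleaved, with a change of -0.03 ± 0.12 (limma, adjusted p = 0.97). C1ra, one of the proteases of the C1 complex, had a change of 0.17 (95% interval -0.13 to 0.48). C1s1, the other, was read by 2 dim clusters, with changes of 0.02 (interval -0.37 to 0.41) and -0.17 (interval -0.53 to 0.19). These genes too have close copies, C1rb and C1s2, whose changes were 0.09 and 0.20.

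The 3 chains of C1q lie side by side in the RefSeq gene table and had small changes below 0, though that of C1qb turned positive without Zfp125 replicate 4. These were -0.15 for C1qa (95% interval -0.38 to 0.07), -0.05 for C1qb (interval -0.28 to 0.18) and -0.08 for C1qc (interval -0.25 to 0.09). Their clusters averaged 5.34, 3.91 and 4.39 over all arrays, against 4.34 for the median cluster. Of 15 macrophage markers read in this hepatocyte line, 5 were brighter than the median cluster. Of the 15, 12 had changes below 0, or 80%, against 50.3% of all clusters. The leukocyte marker Ptprc was dim, at 3.05 in Zfp125 cells and 3.09 in EV cells. How these markers relate to the C1q values was not tested.

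For the alternative pathway 2 of 4 listed genes were measured. Cfb encodes factor B, the protease of the alternative C3 convertase. It read 9.13, 9.19, 9.17 and 8.98 in Zfp125 cells, against 9.36, 9.28, 9.16 and 9.34 in EV cells. The groups overlapped through EV replicate 3, and the change was -0.17 ± 0.09 (limma, adjusted p = 0.619). Cfp, the gene of properdin, which stabilises that convertase, had a change of -0.04 (95% interval -0.26 to 0.18). Cfb and C2, which lie next to each other in the gene table, were both read above the median cluster.

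The 2 receptors were dim. C3ar1, the receptor of C3a, read 3.25, 3.43, 3.28 and 4.14 in Zfp125 cells and 3.26, 3.48, 3.28 and 3.33 in EV cells. Its change of 0.19 (95% interval -0.23 to 0.61) came with Zfp125 replicate 4 above all other arrays, and without it the change was -0.02. C5ar1, the receptor of C5a, had a change of -0.13 (interval -0.46 to 0.19).

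The rest of the pathway was described from a second list of 25 complement genes, of which 22 were measured. Of these 1 fell and 0 rose over all 41345 clusters, where 0.123% of all clusters were called lower. At an unadjusted p under 0.05 there were 3 of 22, all lower in Zfp125 cells, against 4.52% of all clusters called lower at that level. The gene that fell was Serping1, which encodes the C1 inhibitor, the plasma serpin that inactivates C1r, C1s and the MASPs. It was known from earlier results to be lower, so its inclusion in these counts is no independent evidence.

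Serping1 (cluster 17387517) read 5.34, 5.45, 5.11 and 5.62 in Zfp125 cells, against 6.28, 6.26, 6.02 and 6.37 in EV cells. All Zfp125 arrays lay below all EV arrays with a clear gap. The change was -0.85 ± 0.13 (SE), or 1.81-fold lower (limma, adjusted p = 0.0456). That call is near the threshold. On omitting single arrays it was lost in 7 of 8 fits and held without Zfp125 replicate 4, and limma's adjusted p lay between 0.0463 and 0.157. With the brightest cluster of each of 22180 genes, 1.08% of which were called, its adjusted p from limma was 0.00287. The call was lost with array weights (limma, adjusted p = 0.0531), median centring (0.0563), the replicate number as a block (0.0889) and no variance moderation (0.146).

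Cpn1, the catalytic subunit of the carboxypeptidase N that trims C3a and C5a in plasma, read 9.13, 9.17, 9.11 and 9.23 in Zfp125 cells. In EV cells it read 9.55, 9.56, 9.53 and 9.82. The groups did not overlap, and the change was -0.45 ± 0.09 (SE), or 1.37-fold lower (limma, adjusted p = 0.123). Over the brightest cluster of each gene the adjusted p from limma was 0.0352, and over all clusters with a trended, robust prior it was 0.036. It was also called among clusters above the median (0.0435) and with the mean of clusters (0.0356), and in none of the other settings tried with limma, where the adjusted p reached 0.30. Its partner Cpn2 had a change of -0.39 (95% interval -0.82 to 0.04).

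The remaining genes of that list did not pass. Cfhr2 had a change of -0.36 (95% interval -0.71 to -0.01) on a dim cluster. C1rl, a protease related to C1r, had a change of -0.17 (interval -0.34 to 0.01) with groups that did not overlap. The leukocyte receptor genes Itgam, Itgax, Itgb2, Cr2, Vsig4, C5ar2 and Cd93 had changes between -0.07 and 0.15. Groups that did not overlap were seen for 3 of the 22 genes, Serping1, Cpn1 and C1rl, which is 13.6% against 6.23% of all clusters. All 3 were brighter than the median cluster, where the share was 9.04%. Serping1 was listed when already known to be lower, so the count is no independent evidence.

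**Figure D3:**
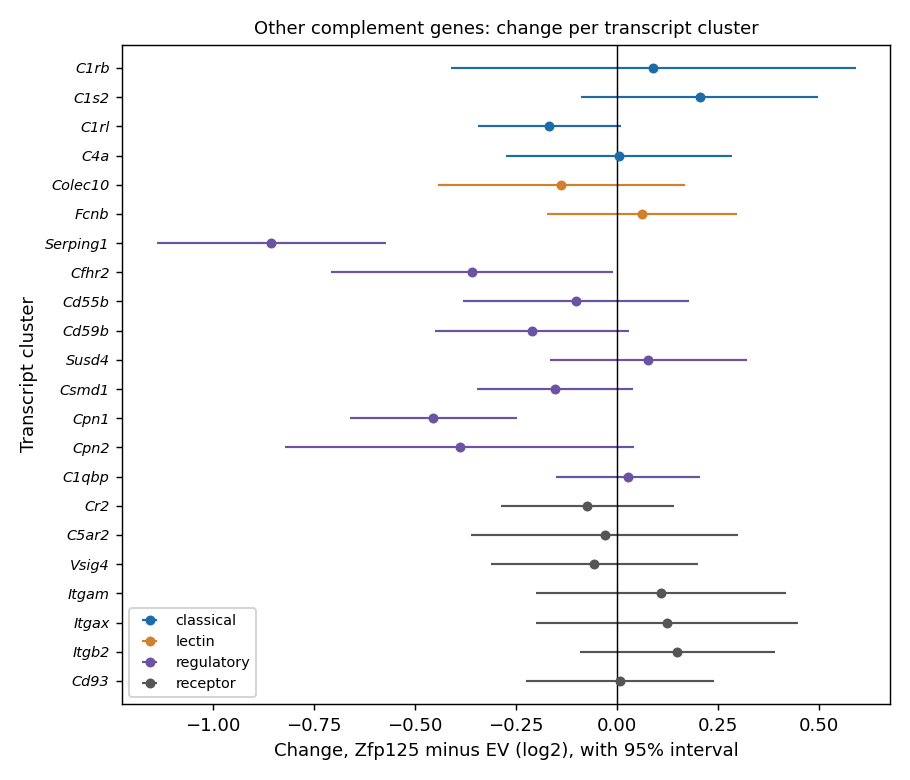
Each row is a transcript cluster of the second list of complement genes, the point is its change between Zfp125 and EV cells (log2, n = 4 arrays each) and the line its unadjusted 95% interval, coloured by role. Serping1 lies lowest at -0.85, followed by Cpn1 at -0.45, and the leukocyte receptors at the bottom lie close to 0.

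Transcription factors known to act on complement genes in liver formed another list, of which 9 of 12 were measured and 0 passed the test. At an unadjusted p under 0.05 there were 3 of 9, all lower in Zfp125 cells, against 4.52% of all clusters that were lower at that level. All 9 were brighter than the median cluster, where 12.1% had such a p in either direction. Hnf4a, a nuclear receptor of hepatocyte genes, averaged 8.34 ± 0.029 in Zfp125 cells and 8.71 ± 0.0892 in EV cells (SD, n = 4 each), a change of -0.38 ± 0.08 (limma, adjusted p = 0.14). Its adjusted p fell below the threshold only among clusters above the table median (0.0491) and with a trended, robust prior (0.0388) among the settings tried with limma. Cebpa and Cebpb, which encode the CCAAT enhancer binding proteins alpha and beta, had changes of -0.39 ± 0.12 (limma, adjusted p = 0.344) and -0.20 ± 0.08 (limma, adjusted p = 0.46). Foxa2, Stat3, Irf1, Rela and Nr1h4 had changes between 0.01 and 0.06, those of Foxa2 and Stat3 turning sign with other scalings, and Cebpd had a change of -0.15.

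Promoter windows of 250 bases before to 50 after the annotated start were read from RefSeq on GRCm38.p6 for 25 of the 32 measured members, 27 windows in all. They were searched on both strands for short forms of 6 motifs. The HNF1 form GTTAATNAT occurred in 2 of the 27 windows, those of C4bp and Hc, and in 0.801% of all 32851 windows of the table. The C/EBP form TTNNGNAA occurred in 12 of 27 windows, or 44.4%, against 40.7% of all windows. The STAT form TTCNNNGAA and the IRF form GAAANNGAA each occurred in 6 of 27, or 22.2%, against 8.30% and 8.56% of all windows. The NF-kB form GGGNNTTTC occurred in 1 of 27 and the HNF4 form CAAAGTCCA in 0 of 27, against 4.36% and 0.475%. A match is a stretch of letters and not a shown binding site.

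The windows of C4bp and Hc are shown because these were the members with the smallest p-values among those in the promoter table, though neither passed the test. Both hold an HNF1 form, and how this relates to their changes was not tested. Capitals mark the motif matches, and positions count from the annotated start. In C4bp, at chr1:130661569-130661868 on the minus strand, the C/EBP form begins at -218 and the HNF1 form at -64. In Hc, at chr2:35061363-35061662 on the minus strand, the HNF1 form begins at -77, reading on the opposite strand, and the C/EBP form at 38.
C4bp: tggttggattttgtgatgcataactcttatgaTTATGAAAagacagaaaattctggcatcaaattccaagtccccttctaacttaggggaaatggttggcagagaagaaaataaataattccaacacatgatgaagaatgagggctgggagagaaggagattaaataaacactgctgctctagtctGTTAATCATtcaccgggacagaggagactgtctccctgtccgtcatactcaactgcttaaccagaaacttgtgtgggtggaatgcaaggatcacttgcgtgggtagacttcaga
Hc: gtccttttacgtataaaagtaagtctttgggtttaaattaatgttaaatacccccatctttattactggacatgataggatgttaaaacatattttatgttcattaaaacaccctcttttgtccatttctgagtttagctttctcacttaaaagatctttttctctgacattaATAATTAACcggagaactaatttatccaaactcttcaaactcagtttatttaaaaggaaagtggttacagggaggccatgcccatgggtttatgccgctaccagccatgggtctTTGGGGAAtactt

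Marker genes of hepatocytes and of other cell types were looked at beside these results, though every sample was of the AML12 hepatocyte line. Of 14 measured hepatocyte markers, 13 were brighter than the median cluster, and Alb averaged 12.48 in Zfp125 cells and 12.96 in EV cells. The mean log2 level over the hepatocyte markers ran from 8.26 to 8.46 on the Zfp125 arrays and from 8.58 to 8.81 on the EV arrays, without overlap. Of the 14, Fgb and Tat passed the test as lower, where 0.123% of all clusters did. At an unadjusted p under 0.05 there were 7 of 14 hepatocyte markers, all lower in Zfp125 cells, against 4.52% of all clusters. Groups did not overlap for 6 of 14, against 6.23%. Among clusters brighter than the median, 12.1% had such a p in either direction and 9.04% had groups that did not overlap. The median change of the 14 was -0.18, and 3 changes lay above 0. Hnf4a is counted both here and among the transcription factors. Over the 33 complement clusters the mean log2 level ran from 5.19 to 5.23 on the Zfp125 arrays and from 5.22 to 5.35 on the EV arrays. How the hepatocyte markers relate to the complement values was not tested. In bulk RNA, fewer cells expressing a gene and less RNA per cell cannot be told apart.

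Of 15 macrophage markers 5 were brighter than the median cluster, and their mean log2 level ran from 4.03 to 4.14 on the Zfp125 arrays and from 4.08 to 4.28 on the EV arrays. None of them passed the test, nor did any stellate or fibroblast, endothelial or cholangiocyte marker measured (limma). At an unadjusted p under 0.05 there were 1 of 15 macrophage, 1 of 13 fibroblast, 0 of 10 endothelial and 1 of 6 cholangiocyte clusters, against 9.43% of all clusters. Of the 6 cholangiocyte markers, 3 were brighter than the median cluster and 3 were dimmer. The bile duct keratin gene Krt19, among the brighter, averaged 8.01 in Zfp125 cells and 8.15 in EV cells. Sox9, the cholangiocyte cluster with an unadjusted p under 0.05, went the other way. It averaged 10.04 in Zfp125 cells and 9.75 in EV cells, and its groups did not overlap. Of the 6 cholangiocyte changes, 3 lay below 0 and 3 above. The scale has no true zero and no detection call was used, so no marker can be called absent.

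No array was the highest or the lowest of its group for most member clusters. EV replicate 4 was the highest EV array for 12 of the 33 member clusters, and EV replicate 1 was the lowest for 15. Among the Zfp125 arrays no replicate was the highest for more than 10 or the lowest for more than 10. These counts were not set against those of all clusters. No member passed the test when any 1 of the 8 arrays was left out (limma). Several small changes kept their sign but moved by over 1.5 times on such omissions. They ran from -0.20 to -0.08 for C1qa, from 0.09 to 0.26 for C1ra, from -0.27 to -0.06 for the dimmer cluster of C1s1 and from -0.15 to -0.06 for Mbl2. The ranges were 0.08 to 0.18 for Cd59a, 0.06 to 0.19 for Cr1l and -0.21 to -0.02 for C5ar1.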

How the data were processed

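RNA from 8 samples was measured on Affymetrix MoGene 2.0 ST arrays. The deposited values are log2 expression values per transcript cluster, a scale read from the values. The submitters' processing notes name Affymetrix Expression Console and Transcriptome Analysis Console. For background correction, normalization and genome build, no statement was found in the labels. The 8 arrays had medians of 4.32 to 4.37 and pairwise correlations of 0.977 to 0.984, and no pair was identical. The number of arrays limits the precision.

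Clusters were named through the platform annotation. Of 41345 clusters, 23521 carried 1 symbol, 1814 several and 16010 none here. Linear models were fitted with limma 3.58.1 (lmFit, eBayes) in R 4.3.3 over all clusters, two-sided, with Benjamini-Hochberg adjustment and a threshold of 0.05. Whole-table testing was chosen because members were taken by cluster, and 1 cluster per gene is an alternative. Changes are Zfp125 minus EV. All 34 members and the second complement list could be named. Values on every array were given for the members with the smallest p or highest level, and for C3ar1, Serping1 and Cpn1, which were picked after their values were seen. Promoters were to be shown for called members and 2 that were not called. As none was called, the 2 with the smallest p were taken. The members and lists were chosen with earlier results of these data known. The fit was tested on simulated data. Plots were drawn with matplotlib 3.10.9. Alternatives covered normalization, dim clusters, variance moderation, array weights, features tested, the replicate block and leaving out each array.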

Additional observations from a re-analysis of the deposited data

Results flagged for a closer look

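A single array stood far from the other 3 of its group in 5 of the 110 groups examined over the members and the second complement list, and chance alone marks about 1 group in 20. None of the 5 belongs to a member. The gap to the nearest array, as a share of the group's range, was 0.925 for Cpn1, whose EV replicate 4 read 9.82, and without that array the change of Cpn1 was -0.39 (limma, adjusted p = 0.217). It was 0.895 for Fcnb, whose EV replicate 2 read 4.43. For Cr2 it was 0.856, with Zfp125 replicate 1 at 3.15, for Itgb2 0.833, with EV replicate 1 at 4.36, and for Susd4 0.831, with Zfp125 replicate 2 at 4.88.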

How the results depend on the processing

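The count of 0 called member clusters was the same under all 18 alternatives (limma). The lowest adjusted p of any member was 0.0582. The median change of the members stayed between -0.08 and -0.04. The sign of the change did not turn for the 6 member clusters with an unadjusted p under 0.05. As those 6 were picked by their p on the same arrays, this is no added evidence. For 13 of 33 member clusters the sign turned in at least 1 alternative. On leaving out 1 array, the changes of these ran from -0.12 to 0.0207 for C1qb, -0.0747 to 0.15 for C1s1, -0.10 to 0.0401 for C2, -0.0156 to 0.28 for C3ar1 and -0.0538 to 0.033 for C6. They were -0.0579 to 0.00555 for C7, -0.0317 to 0.11 for C8a, -0.0884 to 0.14 for C8g, -0.0505 to 0.14 for C9 and -0.27 to 0.000201 for Cd46. Those left were -0.20 to 0.00649 for Cd55, -0.11 to 0.0125 for Cfp and -0.0251 to 0.0819 for Masp2. Among the other complement genes and factors that turned, none called, they ran from -0.00678 to 0.0521 for C1qbp, -0.12 to 0.21 for C1rb, -0.0712 to 0.0771 for C4a, -0.12 to 0.0899 for C5ar2 and -0.0408 to 0.0768 for Cd93. They were -0.032 to 0.0424 for Foxa2, -0.0402 to 0.13 for Nr1h4, -0.0148 to 0.0582 for Rela, -0.0328 to 0.0471 for Stat3 and -0.14 to 0.00754 for Vsig4. The sign also turned, to -0.075 for C1s1 with the mean of clusters, -0.00015 for C4a with median centring, -0.00264 for Cd93 with quantile normalization, -2.75e-05 for Foxa2 with median centring, -0.0074 for Foxa2 with quantile normalization and -0.00128 for Stat3 with median centring. The count over the whole table, 61, was 240 with the brightest cluster of each gene, 227 with the mean of clusters, 94 and 232 among clusters above the 25th percentile and the median, 196 with a trended, robust prior, 4 without variance moderation, and 16 to 61 on leaving out 1 array. In the second complement list the count of 1 was 2 with the brightest cluster, the mean of clusters, clusters above the median, and the trended prior, and 0 with array weights, median centring and no moderation. It was 0 to 1 on leaving out 1 array. With the replicate number as a block both counts were 0, and 3530 clusters had an unadjusted p under 0.05. Samples of 1 number did not deviate together (correlations of -0.04 to 0.03), and 1 of 4 Zfp125 arrays correlated best with its own number. With so few arrays this cannot show whether samples of 1 number shared a batch or culture, which the labels do not say. Where fewer features are tested, fewer p-values are adjusted for, and limma's variance moderation is estimated anew. The cause of the shifts was not tested. Signal over background is not analysed here, which limits what the dim clusters can show.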
